A study of Mus musculus with 61 samples.

Results

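The early response of CD4 T cells to IL-27 was read from 6 arrays, those titled for 1 and 2 h in the IL-27 arm and in the control arm of a time course on HT_MG-430A arrays. They are 6 of the 61 arrays of the series and of its 52 HT_MG-430A arrays. Each arm has 1 array at 1 h and 2 arrays at 2 h, one with the suffix d in its title, a mark without explanation in the labels. IL-27 arrays were compared with control arrays of the same time and suffix, which makes 3 pairs. All 6 hold RNA of C57BL/6 mouse naive CD4 T cells, and one protocol text is attached to both arms. It gives an antibody to CD3 at 1 µg/ml, a second antibody at 1 µg/ml that is written as one to CD8, and IL-27 at 25 ng/ml. The arm therefore rests on the title alone, and the titles give times without a unit, read here as hours. Nothing in the labels says that the arrays came from separate mice or cultures, so each p-value measures only the spread between arrays, which may be technical. The comparison asks which transcripts differed between the arms at 1 to 2 h. The course also has an earlier pair, at 0.5 h, which is set beside these values further on.

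IL-27 is a cytokine of the IL-12 family. Its receptor pairs IL27RA with gp130 (Il6st), and the kinases bound to it phosphorylate STAT proteins, STAT3 among them, which enter the nucleus and act as transcription factors. A cell given IL-27 can switch on genes best known from the interferon response and antiviral defence, together with STAT3 targets and the SOCS proteins that damp the receptor. In CD4 T cells IL-27 is known for driving IL-10-producing type 1 regulatory (Tr1) cells.

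Values are deposited intensities on a linear scale, and no array median among these 6 exceeded 32.3. The highest correlation of each with another array was at least 0.988. Differences are given as the IL-27 array minus its control, after log2(intensity + 32), a scale that understates the change of dim genes, and each is given with its standard error. Of 12291 genes measured, 6487 lay above their array's median on at least 3 of the 6 arrays and were tested with limma. A gene with fewer than 3 control arrays above their medians needed IL-27 arrays to be tested. Cxcl10, Ifit1, Tbx21 and Prdm1 were such genes. A gene was called, and is said to have risen or fallen, at a Benjamini-Hochberg adjusted p under 0.05 over those 6487 genes. The value at 1 to 2 h is the mean of the 3 pairs. Its standard error, like all others here, takes its spread from the 8 times with 2 arrays per arm, 2 h among them. A change of the difference between 1 and 2 h does not enter that spread. The arrays with suffix d differed from the plain 2 h arrays in both arms alike: over the genes tested, plain minus d in one arm correlated with plain minus d in the other at 0.769, given as a description.

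Over 1 to 2 h, 285 genes were called higher with IL-27 (4.39% of those tested) and 340 lower (5.24%), around a median difference of -0.060 over all genes tested. Every list count over 1 to 2 h stands beside these 2 shares. Large differences were mostly increases: 72 of the called genes were higher by 1 or more on the log2 scale, and 3 were lower by as much. In all 3 pairs, 270 of the 285 were higher and 303 of the 340 were lower. The balance between both directions depended on the scaling. Calls were 45.6% higher as deposited, 57.4% with each array centred on its mean and 55.2% after quantile normalization. With only the 6 arrays fitted, 193 genes were called higher and 117 lower, which is 62.3% higher. Without the 2 h pair of suffix d the counts were 173 higher and 89 lower, and without the plain 2 h pair they were 195 and 134.

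Of the receptor and its signalling chain, 3 of 12 tested members rose and none fell, with a list median of 0.027. These were Stat2, Stat3 and Il6st. Stat2, a subunit of the interferon-activated complex ISGF3, had intensities of 86.8, 44.9 and 51.6 on the control arrays (1 h, 2 h and 2 h with suffix d, the order used throughout) and of 307, 392 and 374 with IL-27. Every IL-27 array was above every control array, and the difference was 2.09 ± 0.10 (adjusted p = 2.26e-10). Stat3, which carries the signal of the IL-6 and IL-10 families, went from 1637, 1738 and 2035 to 2183, 4031 and 4523, again with no overlap between arms, a difference of 0.92 ± 0.10 (adjusted p = 8.65e-06). Il6st, the shared signalling chain of the receptor, was at 1107, 913 and 1067 on control arrays and at 1409, 1797 and 2260 on IL-27 arrays, a difference of 0.78 ± 0.11 (adjusted p = 0.000185). The arms did not overlap, but its 3 probe sets ranged from -0.006 to 0.93, and its call was lost without the pair term, with an adjusted p of 0.0685.

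The specific receptor chain and the kinases did not pass the test. Il27ra differed by -0.23 ± 0.094 (adjusted p = 0.144), Jak1 by -0.28 ± 0.10 (adjusted p = 0.0963), Jak2 by 0.090 ± 0.071 (adjusted p = 0.495) and Tyk2 by -0.20 ± 0.11 (adjusted p = 0.282). In these and all later results on bulk RNA, fewer cells of a type and less RNA per cell cannot be told apart.

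Feedback inhibitors of STAT signalling were among the early genes. Of 15 tested members, 5 rose and 1 fell over 1 to 2 h, and 4 were already called higher at 1 h, where 78 genes were called higher (1.2%) and 19 lower (0.293%). Of these 4, Socs3 and Usp18 lost their calls at 1 h without the pair term. Socs2, which was not called, passed the filter through the IL-27 arrays alone. A value at 1 h rests on 1 array per arm, and its spread likewise comes from the 8 times with 2. Socs1, which binds JAK kinases and blocks them, stood at 113, 312 and 580.3 on control arrays and at 1226, 1775 and 2273 with IL-27. The arms did not overlap, although control cells also had more of it on each 2 h array, and the difference was 2.47 ± 0.20 (adjusted p = 1.90e-07). Socs3, which docks on gp130, was at 1158, 651 and 544 in control cells and at 3754, 2907 and 1991 with IL-27, a difference of 1.86 ± 0.17 (adjusted p = 8.45e-07). Its level was lower on both 2 h arrays than at 1 h in each arm, and every IL-27 array stayed above every control array.

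Cish, a SOCS-family inhibitor best known downstream of STAT5, took another course. Its intensities were 182, 488 and 1066 without and 838, 1005 and 1800 with IL-27, so the arms overlapped. The difference was 2.02 ± 0.16 at 1 h and 0.87 ± 0.12 at 2 h, where control cells had more of the transcript than at 1 h. That change of -1.16 ± 0.20 passed its own test (adjusted p = 0.0118), but not without the 2 h pair of suffix d, nor without the pair term. Usp18, which removes ISG15 from proteins and restrains the type I interferon receptor, rose by 1.93 ± 0.14 (adjusted p = 8.23e-08), from 43.6 to 70.3 in control cells to 215 to 421 with IL-27. The member that fell was Pias4, a SUMO ligase of the PIAS family, by 0.37 ± 0.089 on the log2 scale (adjusted p = 0.0136), a call lost without either 2 h pair.

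Interferon regulatory factors rose nearly as a family. Of 7 tested, 6 were called higher and none lower, with a median difference of 1.32, and 5 were called higher at 1 h. At 1 h Irf8 and Irf9 lost their calls without the pair term and Irf7 without the pseudocount. Irf1, an activator of interferon-response genes, was at 1925, 3024 and 3606 in control cells and at 7091, 7326 and 6374 with IL-27. Its IL-27 arrays all lay above every control array, and the difference was 1.32 ± 0.11 (adjusted p = 4.36e-07). Irf8, a factor best known from myeloid cells, was at 41.5, 185 and 1381 without and at 275, 2597 and 4843 with IL-27. It was higher at 2 h than at 1 h in both arms, the arms overlapped across times but not within a pair, and the difference was 2.48 ± 0.22 (adjusted p = 8.48e-07). Irf7, an activator of the type I interferon genes, rose by 1.70 ± 0.083 (adjusted p = 4.85e-10), and Irf9, the DNA-binding part of ISGF3, by 0.96 ± 0.10 (adjusted p = 4.40e-06).

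Irf4 is a member of this family that T-cell receptor signals also induce. Control arrays had 891, 1966 and 4435 and IL-27 arrays 4174, 5789 and 7347. The arms overlapped across times, and each pair was higher with IL-27. The difference was 2.19 ± 0.28 (adjusted p = 0.000242) at 1 h and 1.13 ± 0.20 (adjusted p = 0.0013) at 2 h, the latter lost without the plain 2 h pair. Irf2 completes the 6 members that rose, at 0.56 ± 0.16 (adjusted p = 0.0404).

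The interferon-inducible GTPases attack the vacuoles of intracellular pathogens. All 9 members that passed the filter on low values were called higher at 1 to 2 h, with a median difference of 2.70 against -0.060 over all genes tested. The same count of 9 was found with each array centred, after quantile normalization, without the pair term and with any 1 of the 3 pairs left out. Mx1 and Mx2 did not pass the filter, and the other 8 of the 19 listed genes have no probe set of their own. Iigp1, an immunity-related GTPase, had 119, 203 and 256 on the control arrays and 1509, 3632 and 3195 with IL-27. That is a difference of 3.60 ± 0.17 (adjusted p = 4.85e-10), with the arms far apart at both times. Irgm1, a regulator of the other GTPases, went from 332, 884 and 1635 to 2800, 6056 and 5787, a difference of 2.498 ± 0.19 (adjusted p = 1.33e-07), with no overlap either.

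Among the guanylate-binding proteins (Gbp genes), several differences grew from 1 to 2 h. Of the 9 tested GTPases, 4 were called for this growth, beside 0.478% of all tested genes: Gbp2, Gbp7, Gbp8 and Gbp10. Gbp3 was not called for it. Gbp10 was at 352, 129.7 and 135 in control cells and at 1055, 2514 and 2703 with IL-27. Its difference was called at 1 h (adjusted p = 0.00559) and stood at 4.01 ± 0.19 at 2 h, and the growth of 2.51 ± 0.33 passed its test (adjusted p = 0.002). Gbp7 was at 569.5, 386 and 596 without and at 1391, 5498 and 6448 with IL-27, and did not pass the test at 1 h (1.24 ± 0.38, adjusted p = 0.181). At 2 h its difference was 3.55 ± 0.26 (adjusted p = 1.18e-07). The growth of Gbp7 lost its call without either 2 h pair. Over 1 to 2 h Gbp2 rose by 2.76 ± 0.13 (adjusted p = 4.85e-10) and Gbp3 by 2.70 ± 0.12 (adjusted p = 2.26e-10). Whether a probe set of one Gbp gene also reads a close copy was not tested.

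Antiviral genes of the interferon response rose almost as completely: 31 of 34 tested members were called higher and none lower, with a median difference of 1.16. Of the 34, Ifit3 and Oas3, both called, had no control array above its median and so passed the filter through the IL-27 arrays alone. Members with 1 or 2 such control arrays, Ifit1 among them, also needed IL-27 arrays to pass and were not counted. At 1 h 14 of the 34 were called higher, and at 2 h 32. Without the 2 h pair of suffix d, 26 of the 34 were called higher over 1 to 2 h. Ifit1, which binds foreign RNA, was at 77.8, 29.4 and 23.4 on control arrays and at 788, 532 and 528 with IL-27, a difference of 3.15 ± 0.12 (adjusted p = 1.95e-10). The arms were far apart, and both had less of the transcript at 2 h than at 1 h. Rtp4, a chaperone of membrane receptors, went from 567, 316 and 342 to 3147, 3400 and 3064, a difference of 2.92 ± 0.13 (adjusted p = 2.26e-10). Its 2 probe sets ranged from 0.35 to 2.92.

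Zbp1, a sensor of Z-form nucleic acid, rose by 2.67 ± 0.28 (adjusted p = 5.22e-06), from 169 to 302 in control cells to 1106 to 1974 with IL-27. Pml, the organiser of nuclear bodies, rose by 2.31 ± 0.10 (adjusted p = 2.26e-10) and Parp9, a partner of ADP-ribosyltransferases, by 2.46 ± 0.12 (adjusted p = 6.61e-10). Of the interferon genes themselves, Ifna1, Ifna2, Ifna4 and Ifnb1 did not pass the filter. Ifng, the type II interferon, was at 23.7, 94.5 and 195 in control cells and at 16.9, 107 and 213 with IL-27 (0.018 ± 0.44, adjusted p = 0.987; chosen after its value was seen). Ifnar2, a chain of the type I interferon receptor, was the single called member of 5 tested interferons and interferon receptors, at 0.73 ± 0.13 (adjusted p = 0.00134), and its call was lost without the plain 2 h pair.

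**Figure D1:**
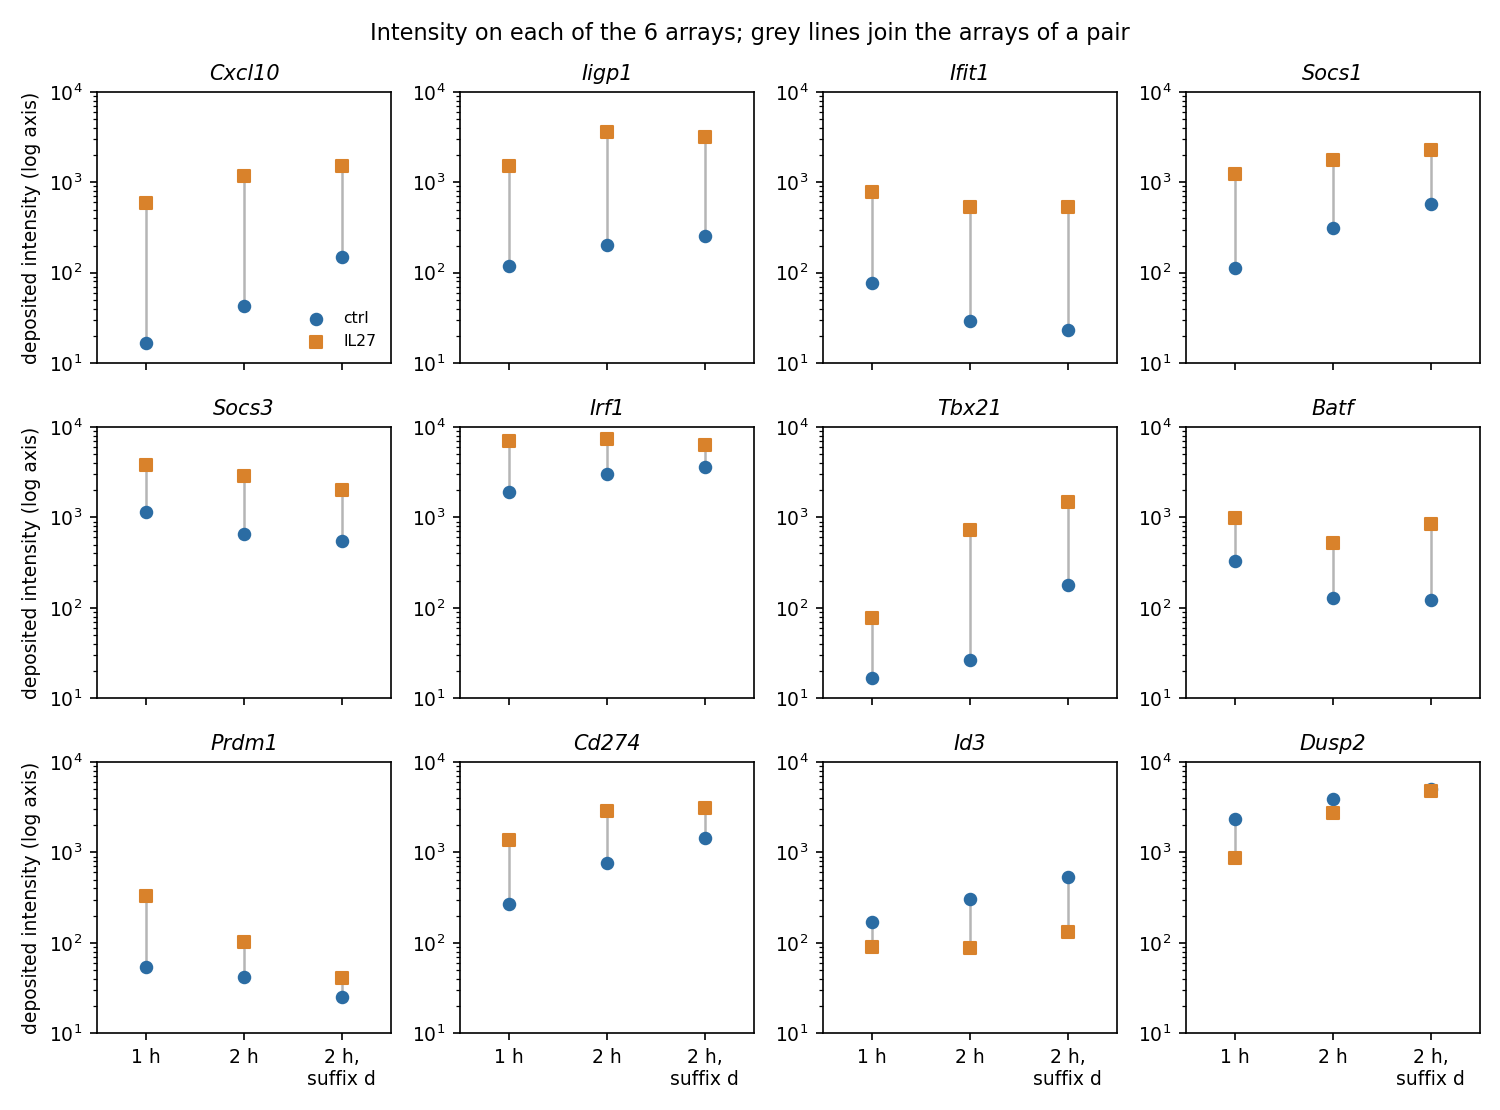
Deposited intensity (log axis) of 12 genes on each of the 6 arrays; circles are control arrays, squares IL-27 arrays, and a grey line joins the arrays of a pair. Cxcl10, Iigp1, Ifit1, Socs1, Socs3, Irf1 and Batf have every IL-27 array above every control array, Id3 has every IL-27 array below, and the difference of Dusp2 is -1.42 at 1 h and -0.29 at 2 h.

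Because these genes moved together, promoters of 6 of the 9 genes with the largest increases are shown (those of Iigp1, Gbp10 and Rtp4 are not printed), from 250 bases before to 50 after the gene start, as RefSeq gives them on GRCm38.p6. Capitals mark 2 patterns, searched on both strands. TTCNNNGAA is the form bound by STAT dimers. GAAANNGAA is the core of the interferon-stimulated response element (ISRE), which ISGF3 and the IRF proteins bind. Cxcl10 lies at chr5:92348840-92349139, minus strand, Ifit1 at chr19:34640639-34640938, plus strand, and Frmd4b, a gene described further on, at chr6:97617608-97617907, minus strand. Gbp7 lies at chr3:142530086-142530385, plus strand, Gbp2 at chr3:142620413-142620712, plus strand and Gbp3 at chr3:142559794-142560093, plus strand. The promoters of Socs3 (chr11:117969317-117969616, minus strand) and Irf1 (chr11:53769764-53770063, plus strand), textbook STAT targets, were added after their values were seen. Where a gene has several listed promoters, the first is printed.
Cxcl10 promoter: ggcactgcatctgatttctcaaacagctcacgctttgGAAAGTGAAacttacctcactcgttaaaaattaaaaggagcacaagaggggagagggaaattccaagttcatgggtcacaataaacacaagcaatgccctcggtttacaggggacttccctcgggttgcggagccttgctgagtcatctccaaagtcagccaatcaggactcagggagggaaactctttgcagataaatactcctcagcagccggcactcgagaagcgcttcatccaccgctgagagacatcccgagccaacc
Ifit1 promoter: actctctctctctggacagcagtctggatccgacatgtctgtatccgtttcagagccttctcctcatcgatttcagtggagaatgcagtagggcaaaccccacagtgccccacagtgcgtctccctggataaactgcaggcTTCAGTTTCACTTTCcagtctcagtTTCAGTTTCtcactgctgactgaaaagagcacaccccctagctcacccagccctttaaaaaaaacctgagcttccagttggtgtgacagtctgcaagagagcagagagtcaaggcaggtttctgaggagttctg
Frmd4b promoter: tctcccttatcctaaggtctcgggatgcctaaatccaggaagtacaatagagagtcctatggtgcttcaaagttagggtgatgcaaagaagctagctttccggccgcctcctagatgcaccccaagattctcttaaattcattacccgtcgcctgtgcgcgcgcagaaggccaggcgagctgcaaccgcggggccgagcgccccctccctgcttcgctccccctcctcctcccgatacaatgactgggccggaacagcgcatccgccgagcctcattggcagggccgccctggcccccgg
Gbp7 promoter: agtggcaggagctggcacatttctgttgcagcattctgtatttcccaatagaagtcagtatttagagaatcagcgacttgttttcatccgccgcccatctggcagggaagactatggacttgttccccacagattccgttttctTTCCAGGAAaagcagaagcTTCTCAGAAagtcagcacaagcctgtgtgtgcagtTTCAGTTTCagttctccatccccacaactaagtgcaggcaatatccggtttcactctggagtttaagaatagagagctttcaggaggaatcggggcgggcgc
Gbp2 promoter: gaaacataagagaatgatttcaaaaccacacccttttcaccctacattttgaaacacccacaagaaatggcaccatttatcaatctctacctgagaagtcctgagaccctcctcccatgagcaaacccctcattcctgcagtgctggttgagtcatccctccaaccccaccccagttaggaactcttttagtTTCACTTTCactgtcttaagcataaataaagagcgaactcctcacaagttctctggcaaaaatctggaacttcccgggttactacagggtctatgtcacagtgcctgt
Gbp3 promoter: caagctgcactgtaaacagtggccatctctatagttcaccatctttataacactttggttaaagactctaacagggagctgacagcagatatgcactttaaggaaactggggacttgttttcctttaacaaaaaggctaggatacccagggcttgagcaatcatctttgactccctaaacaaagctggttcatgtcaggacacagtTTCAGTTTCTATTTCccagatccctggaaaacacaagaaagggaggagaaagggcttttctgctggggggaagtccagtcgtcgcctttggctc
Socs3 promoter: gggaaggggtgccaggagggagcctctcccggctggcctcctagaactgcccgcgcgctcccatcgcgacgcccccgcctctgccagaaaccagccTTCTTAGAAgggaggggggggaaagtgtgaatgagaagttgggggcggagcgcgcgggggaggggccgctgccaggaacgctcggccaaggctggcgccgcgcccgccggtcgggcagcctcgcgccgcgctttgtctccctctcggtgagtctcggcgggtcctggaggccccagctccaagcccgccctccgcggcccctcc
Irf1 promoter: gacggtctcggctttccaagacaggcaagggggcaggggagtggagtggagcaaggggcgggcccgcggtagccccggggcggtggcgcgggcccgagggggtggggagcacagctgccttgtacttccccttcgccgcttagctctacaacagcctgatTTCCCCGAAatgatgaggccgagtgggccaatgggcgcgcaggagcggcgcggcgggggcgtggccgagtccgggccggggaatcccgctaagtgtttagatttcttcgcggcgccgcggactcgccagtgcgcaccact
Ifit1 has 3 matches to the ISRE core, some of which overlap, and Gbp3 has 2 that overlap. Cxcl10 and Gbp2 have 1 each. Gbp7 has 2 matches to the STAT form and 1 to the ISRE core, Socs3 and Irf1 have 1 STAT match each, and Frmd4b has neither. A match describes the letters and is not a bound site.

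Of the 285 genes called higher, 228 have a promoter in the table, and 22.4% of these (51) hold the ISRE core against 7.36% of the promoters of all tested genes. The STAT form was in 18.0% (41) against 6.78%. Among genes called lower the shares were 3.33% for the ISRE core and 4.44% for the STAT form. An AP-1 site, TGANTCA, searched on both strands for comparison, was in 7.02% of the promoters of higher genes, 4.07% of those of lower genes and 4.34% of those of all tested genes. For the genes called higher at 1 h the shares were 30.2% for the ISRE core (19 of 63 promoters), 19.0% for the STAT form and 12.7% for AP-1. Over all 32851 promoters of the table the ISRE core was in 8.56%, the STAT form in 8.30% and the AP-1 site in 7.81%. These shares are descriptions with no test.

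MHC class I presents peptides from inside the cell to CD8 T cells. Of 11 tested genes of this pathway none was called at 1 h, where 1.2% of all tested genes were called higher. At an unadjusted p under 0.05 in limma, 1 was higher and 1 lower at 1 h. At 2 h 8 were called higher, and 7 over 1 to 2 h beside 4.39% of all, with a median difference of 0.37. Psmb9, a subunit of the immunoproteasome, was at 541, 395 and 391 without and at 734, 1098 and 1338 with IL-27, so the arms did not overlap. The difference was 0.42 ± 0.17 at 1 h and 1.55 ± 0.12 at 2 h, and the change of 1.13 ± 0.20 passed its test (adjusted p = 0.0149). Tap2, a subunit of the peptide transporter, rose by 0.67 ± 0.073 (adjusted p = 9.70e-06) and Tapbp, which helps to load the peptides, by 0.62 ± 0.094 (adjusted p = 0.00031). The count of 7 became 4 without the 2 h pair of suffix d, 5 without the plain 2 h pair and 2 without the pair term.

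Cxcl10, the interferon-induced ligand of the chemokine receptor CXCR3, had the largest difference of the genes called at 1 to 2 h. Control arrays had 16.9, 42.3 and 149, and IL-27 arrays 596, 1184 and 1511. Both arms were higher at 2 h than at 1 h, with every IL-27 array above every control array, and the difference was 3.60 ± 0.19 (adjusted p = 1.04e-09). On the cell surface, Cd274, the checkpoint ligand PD-L1, was at 267, 774 and 1449 in control cells and at 1379, 2866 and 3068 with IL-27. The arms overlapped across times because control cells gained it too, but each pair was higher with IL-27, by 1.72 ± 0.12 (adjusted p = 3.59e-08) on average. Icam1, an adhesion molecule, rose by 1.94 ± 0.16 (adjusted p = 4.32e-07), and Fas, the death receptor, by 1.90 ± 0.14 (adjusted p = 9.74e-08).

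Among the 15 genes with the largest increases, 2 belong to none of the gene lists. Frmd4b, a scaffold protein, went from 50.8, 47.9 and 74.4 to 557, 744 and 909.6, with no overlap between arms and a difference of 3.08 ± 0.14 (adjusted p = 2.26e-10). Its 4 probe sets ranged from 0.76 to 3.08. Elovl6, which elongates fatty acids, went from 80.8, 77.0 and 39.0 to 450.1, 750.1 and 417, likewise with no overlap, a difference of 2.53 ± 0.11 (adjusted p = 2.26e-10). Scd2, which desaturates fatty acids, fell, from 477, 439 and 384 to 263, 156 and 124, by 1.17 ± 0.11 on the log2 scale (adjusted p = 1.01e-06). Its 3 probe sets ranged from -1.17 to -0.055. Of the 18 tested genes of cholesterol synthesis and uptake, the list that holds Scd2, 1 other was called, Ebp, higher by 0.77 ± 0.10 (adjusted p = 0.000111).

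Several regulators of T-cell fate rose within these hours, while Il10 did not pass the filter. Il10 was between 9.74 to 12.5 on the 6 arrays and was not tested. The same held for Maf, an activator of Il10, at 9.83 to 21.6. Of 13 tested genes of the Tr1 list, 4 rose and none fell, beside 4.39% and 5.24% of all tested genes. Batf, an AP-1 partner of IRF4, was at 329, 128 and 123 without and at 981, 516 and 846 with IL-27, with no overlap and a difference of 1.92 ± 0.13 (adjusted p = 2.46e-08). Prdm1, which encodes Blimp-1, was at 54.4, 42.3 and 25.0 in control cells and at 327, 101 and 40.6 with IL-27. Its arms overlapped across times, and its difference was 2.05 ± 0.38 (adjusted p = 0.00657) at 1 h and 0.60 ± 0.27 (adjusted p = 0.175) at 2 h. The call over 1 to 2 h (1.08 ± 0.22, adjusted p = 0.00376) was lost without the 1 h pair, without the pair term and on the 6 arrays alone.

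Ahr, the aryl hydrocarbon receptor, rose by 0.50 ± 0.11 (adjusted p = 0.00724), a call lost without the plain 2 h pair, without the pair term and on the 6 arrays alone, and its 2 probe sets were at -0.046 to 0.50. Il21, a cytokine that amplifies Tr1 cells, did not pass the test, at 17.5, 27.4 and 49.6 without and 20.8, 53.4 and 77.9 with IL-27 (0.35 ± 0.18, adjusted p = 0.263). Tbx21, which encodes the Th1 factor T-bet, was at 16.6, 26.4 and 177 in control cells and at 77.5, 720.5 and 1486 with IL-27. Its difference of 1.17 ± 0.32 at 1 h did not pass the test (adjusted p = 0.124), and at 2 h it was 3.28 ± 0.23 (adjusted p = 5.54e-08). Without the pseudocount the difference of Tbx21 at 1 h was 2.23 and was called. Over 1 to 2 h Tbx21 was the single called gene of 7 tested Th1 genes, beside 4.39% of all tested genes that rose.

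The other helper lists are set beside all tested genes, of which 4.39% rose and 5.24% fell. Th2 genes moved both ways. Of 8 tested, 3 rose and 2 fell, with the cytokine gene Il4 at 0.33 ± 0.079 (adjusted p = 0.0119) and Ccr8, a chemokine receptor, at -0.51 ± 0.11 (adjusted p = 0.00526). These counts became 0 and 1 without the plain 2 h pair, and 1 and 0 without the pair of suffix d. Ikzf4, which encodes the zinc finger protein Eos, rose by 0.91 ± 0.10 (adjusted p = 8.65e-06), with probe sets at 0.16 to 0.91. Foxp3 was at 12.3 to 31.7 on the 6 arrays and did not pass the filter. Of 9 tested regulatory T-cell genes 1 rose and 1 fell, the latter lost without either 2 h pair, and of 3 tested Th17 genes 1 rose, Batf.

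Among 18 tested STAT3 target genes, 6 rose and 2 fell, and 5 and 1 without either 2 h pair. Over all tested genes 4.39% rose and 5.24% fell. Bcl3, an atypical IkB protein, rose by 1.43 ± 0.13 (adjusted p = 7.44e-07), the kinase gene Pim2 by 1.11 ± 0.10 (adjusted p = 1.05e-06) and the cytokine gene Lif by 1.38 ± 0.14 (adjusted p = 4.43e-06), though the 3 probe sets of Lif ranged from 0.026 to 1.38. Bcl6, a repressor that opposes Prdm1, fell, from 207, 475 and 542 to 72.7, 338 and 407. The arms overlapped across times. Its difference was -1.19 ± 0.19 (adjusted p = 0.00149) at 1 h and -0.42 ± 0.13 (adjusted p = 0.0492) at 2 h, and the call at 2 h was kept in 4 of 12 settings.

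Immediate-early genes of the T-cell receptor, which the CD3 antibody triggers, split into rising and falling members. Over 1 to 2 h 6 of 27 rose and 4 fell, beside 4.39% and 5.24% of all tested genes. Without the 1 h pair 5 rose and 2 fell, without the plain 2 h pair 3 and 5, and without the pair of suffix d 3 and 2. Rgs1, which shortens G-protein signals, was at 392, 438 and 332 in control cells and at 1502, 1385 and 997 with IL-27, with no overlap and a difference of 1.65 ± 0.10 (adjusted p = 4.05e-09). Zfp36, which destabilises cytokine mRNAs, rose by 0.66 ± 0.11 (adjusted p = 0.000822). Myc, a factor of growth, was at 652, 2473 and 5432 without and at 1320, 3175 and 5435 with IL-27. It rose at 1 h by 0.98 ± 0.17 (adjusted p = 0.00326), and at 2 h its difference was 0.18 ± 0.12 (adjusted p = 0.362).

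The genes that were lower at 1 h include several that T-cell receptor signals induce. Of the 27 tested immediate-early genes, 3 were called lower at 1 h, beside 0.293% of all tested genes: Dusp2, Nr4a2 and Nr4a3. Myc and Rgs1, 2 of the 27, were called higher, beside 1.2% of all. Dusp2, a phosphatase of MAP kinases, was at 2359, 3926 and 4989 in control cells and at 864, 2731 and 4795 with IL-27. Its difference was -1.42 ± 0.20 (adjusted p = 0.000531) at 1 h and -0.29 ± 0.14 (adjusted p = 0.209) at 2 h, and the change between both passed its test (1.13 ± 0.24, adjusted p = 0.0463). Nr4a2, an orphan nuclear receptor, was at 1048, 2015 and 2400 without and at 536, 1910 and 2447 with IL-27. It was lower at 1 h (-0.93 ± 0.15, adjusted p = 0.00178) and stood at -0.024 ± 0.10 at 2 h. Gfi1, a transcriptional repressor, differed by -0.89 ± 0.17 (adjusted p = 0.00803) at 1 h.

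Ppp3ca, a catalytic subunit of calcineurin, was at 726, 406 and 447 without and at 356, 374 and 539 with IL-27, and differed by -0.97 ± 0.18 (adjusted p = 0.00851) at 1 h. Its 3 probe sets ranged from -0.27 to 0.14 over 1 to 2 h, and the call at 1 h was lost on their mean. The long non-coding RNA Lncpint was at 752, 205 and 154 without and at 289, 261 and 169 with IL-27, which is -1.29 ± 0.15 (adjusted p = 9.18e-05) at 1 h and 0.21 ± 0.11 at 2 h. In control cells it was far higher at 1 h than at 2 h. Without the pair term, Dusp2, Ppp3ca, Nr4a2 and Gfi1 lost their calls at 1 h. Il2, whose induction marks activation, was at 64.4, 556 and 3286 without and at 23.9, 486 and 3303 with IL-27, and did not pass the test at 1 h (-0.79 ± 0.20, adjusted p = 0.063; chosen after its value was seen).

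Falling genes over 1 to 2 h included factors of resting T cells. Of 21 tested genes of naive T-cell factors and trafficking, 6 fell and none rose, beside 5.24% and 4.39% of all tested genes. The list median was -0.15. The same counts were found with arrays centred, after quantile normalization and without the plain 2 h pair, and 4 fell without the 2 h pair of suffix d. Id3, an inhibitor of E proteins, was at 169, 302 and 541 in control cells and at 89.4, 86.6 and 132 with IL-27. The arms did not overlap, control cells had more of it at 2 h than at 1 h, and the difference was -1.34 ± 0.14 (adjusted p = 3.32e-06). Myb, a factor of progenitor and resting lymphocytes, fell from 1452, 924 and 639.5 to 964, 399.7 and 278 (-0.95 ± 0.11, adjusted p = 2.68e-05). It was lower at 2 h than at 1 h in both arms. Klf3, a repressor of the Krüppel-like family, fell by 0.94 ± 0.11 on the log2 scale (adjusted p = 2.66e-05) and Sox4, a factor of early lymphocytes, by 0.79 ± 0.094 on the log2 scale (adjusted p = 2.39e-05). The 6 probe sets of Sox4 ranged from -0.79 to -0.086.

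Of 14 tested members of the TNF superfamily, 7 fell and 2 rose, with a median of -0.34, beside 5.24% of all tested genes that fell. Without the 2 h pair of suffix d 1 fell, and without the plain 2 h pair 2. Tnfsf11, which encodes RANKL, was at 325, 889 and 1867 without and at 169, 547 and 1120 with IL-27. Each pair was lower with IL-27 while both arms were higher at 2 h than at 1 h, and the difference was -0.74 ± 0.12 (adjusted p = 0.000386). Tnfsf14, which encodes LIGHT, was at 15.6, 118 and 315 without and at 15.1, 54.6 and 107 with IL-27, a difference of -0.016 ± 0.18 at 1 h and -1.05 ± 0.13 (adjusted p = 2.67e-05) at 2 h. The 2 that rose were Fas and Tnfrsf25, both death-domain receptors, the latter by 0.58 ± 0.11 (adjusted p = 0.00187).

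Co-receptors and adaptors of the T-cell receptor were also among the lower genes. Of 14 tested co-stimulatory and co-inhibitory genes, 4 fell and 2 rose, beside 5.24% and 4.39% of all tested genes. Without the 2 h pair of suffix d these counts were 2 and 1. Cd28, the co-stimulatory receptor, went from 4403, 2825 and 2214 to 3130, 1690 and 1075, a difference of -0.75 ± 0.14 (adjusted p = 0.00165) that lost its call without the 2 h pair of suffix d. Cd5, which restrains receptor signalling, was at 2349, 2745 and 4335 without and at 2081, 1378 and 2422 with IL-27. Its difference was -0.17 ± 0.10 at 1 h and -0.90 ± 0.074 (adjusted p = 3.16e-07) at 2 h. Sit1, an adaptor that inhibits the same receptor, went from 440.5, 179 and 143 to 273, 73.8 and 35.6, a difference of -1.001 ± 0.094 (adjusted p = 1.53e-06). For these 3 genes each pair was lower with IL-27, while the arms overlapped across times.

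The other genes with the largest decreases have varied roles. The chemokine receptor gene Cxcr4 was at 1228, 841 and 496 without and at 887, 305 and 248 with IL-27, a difference of -0.92 ± 0.17 (adjusted p = 0.0017), which lost its call without the plain 2 h pair. Kcnn4, a calcium-activated potassium channel, fell by 0.76 ± 0.074 on the log2 scale (adjusted p = 2.09e-06), with no overlap between arms. Rgs2, a brake on G-protein signals, fell by 0.75 ± 0.10 on the log2 scale (adjusted p = 0.000128). Bbc3, which encodes the death-promoting protein PUMA, fell by 0.80 ± 0.13 on the log2 scale (adjusted p = 0.000577) and was the single called gene of 9 tested in the BCL2 family, beside 5.24% of all tested genes that fell. B4galnt1, a ganglioside synthase, fell by 0.81 ± 0.12 on the log2 scale (adjusted p = 0.000244), with probe sets at -0.81 to -0.042, and lost its call without the 2 h pair of suffix d. Erf, a repressor of the ETS family, fell by 0.74 ± 0.11 on the log2 scale (adjusted p = 0.000248), with probe sets at -0.74 to -0.008, and Rflnb, which binds filamin, by 0.91 ± 0.11 on the log2 scale (adjusted p = 2.08e-05).

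**Figure D2:**
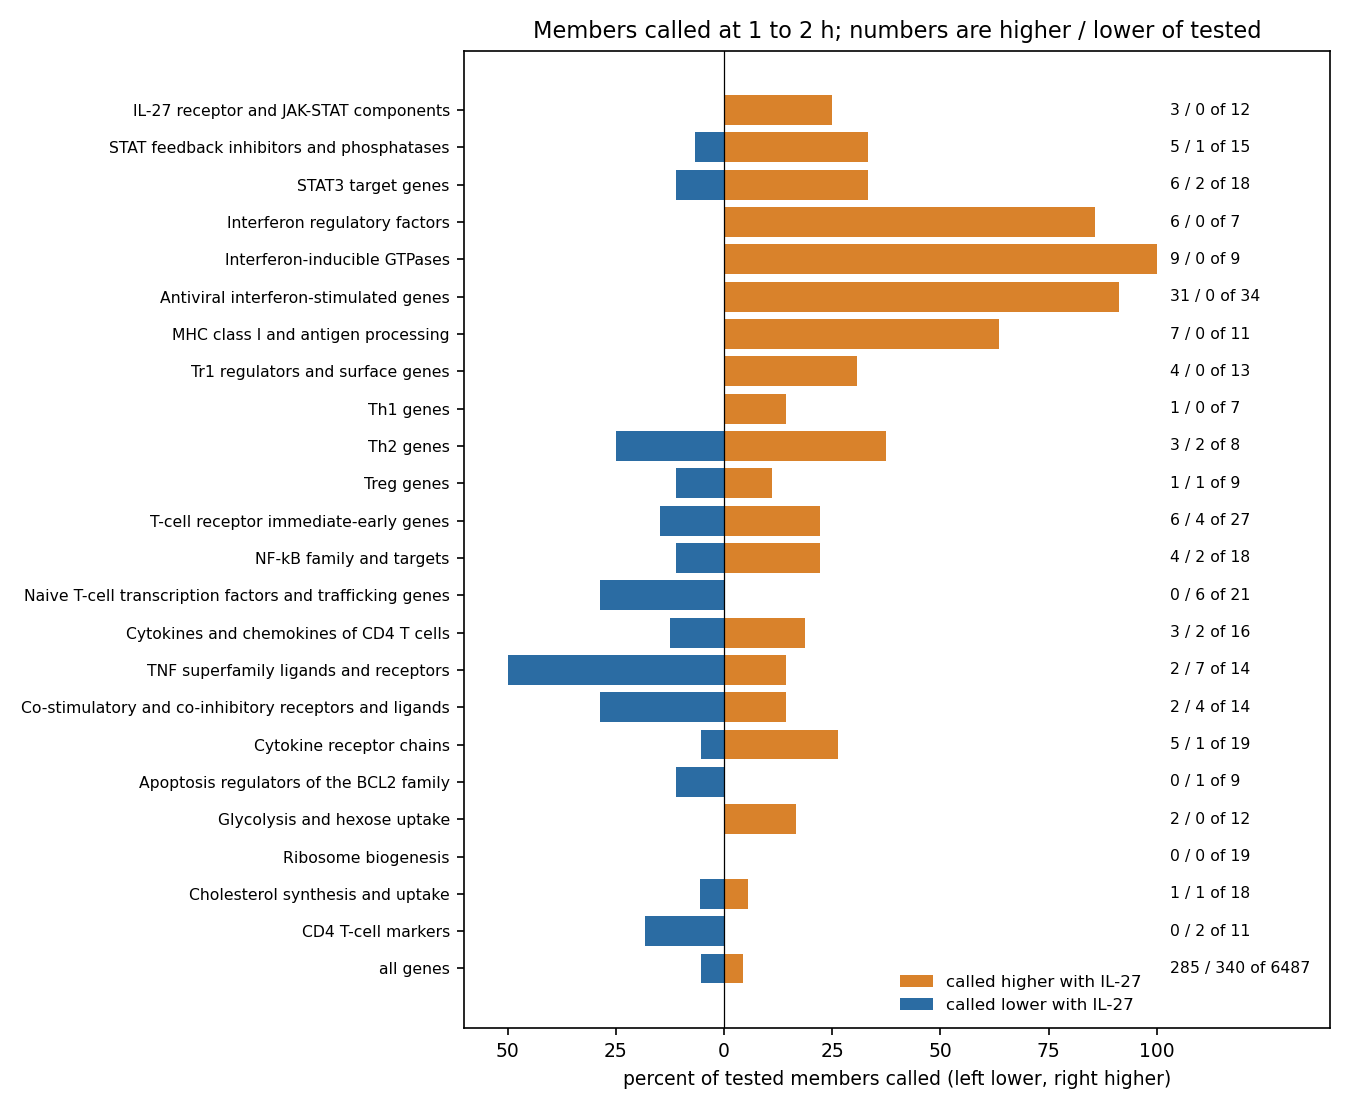
Share of the tested members of each gene list called higher (right) or lower (left) with IL-27 at 1 to 2 h, in percent, for lists with 7 or more tested members; the numbers give members called higher, called lower and tested. Interferon-inducible GTPases (9 of 9), antiviral genes (31 of 34) and interferon regulatory factors (6 of 7) reach farthest to the right, against 4.39% of all genes, and TNF superfamily genes reach farthest to the left (7 of 14), which holds with all pairs but not without either 2 h pair, where 1 or 2 of the 14 fell.

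The remaining lists are given beside all tested genes, of which 4.39% rose and 5.24% fell. None of 19 tested genes of ribosome biogenesis was called either way with limma (median 0.081), with 2 higher and 0 lower at an unadjusted p under 0.05, and 1 rose with arrays centred and on the 6 arrays alone. Of 12 tested genes of glycolysis and hexose uptake, 2 rose and none fell. Hk1, the first enzyme of the pathway, was at 382, 322 and 359 without and at 462, 959.5 and 1557 with IL-27. Its difference was 0.25 ± 0.17 at 1 h and 1.75 ± 0.12 (adjusted p = 3.68e-08) at 2 h. Ldha rose by 0.22 ± 0.045 (adjusted p = 0.00369). Of 18 tested NF-kB genes, 4 rose and 2 fell, and Tnfaip3, an inhibitor of the pathway, was among those that fell (-0.51 ± 0.10, adjusted p = 0.00206). Of 19 tested cytokine receptor chains, 5 rose and 1 fell, and of 16 tested cytokines and chemokines, 3 rose and 2 fell, with Il16 at -0.64 ± 0.090 (adjusted p = 0.000173). Without the pair of suffix d the counts that rose were 2 for NF-kB genes, 2 for receptor chains and 2 for cytokines and chemokines, and without the plain 2 h pair they were 2, 3 and 2. Glycolysis genes kept 1 call without the plain 2 h pair.

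At 2 h, 292 genes were called higher (4.5%) and 445 lower (6.86%). Calls at 2 h were 39.6% higher as deposited, 57.1% with arrays centred and 53.4% after quantile normalization. Without the pair of suffix d 145 were higher and 74 lower, and without the plain pair 192 and 250. Both times called 64 genes higher, which is 82.1% of those at 1 h and 21.9% of those at 2 h, and 9 lower, which is 47.4% and 2.02%. No gene was called in opposite directions at 1 and at 2 h. A gene called at one time and not at the other is not thereby shown to differ, so the change of the difference was tested itself. It was called higher at 2 h for 31 genes (0.478%) and lower for 10 (0.154%). This split of 75.6% higher became 88.1% with arrays centred and 86.8% after quantile normalization. Without the 2 h pair of suffix d 12 genes were called in all, and without the pair term 6.

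Of the 31 genes, 27 were called higher at 2 h and 7 at 1 h. Gbp8 was at 332, 160.5 and 151 on control arrays and at 518, 1457 and 1592 on IL-27 arrays, and its difference grew by 2.46 ± 0.21 (adjusted p = 2.85e-05). Eif2ak2, which encodes the RNA-sensing kinase PKR, was at 206, 137 and 111 without and at 170.3, 565 and 687 with IL-27. Its difference was -0.24 ± 0.22 at 1 h and 2.07 ± 0.16 at 2 h, a change of 2.31 ± 0.27 (adjusted p = 0.000776). Parp14, an ADP-ribosyltransferase, grew by 2.19 ± 0.31 (adjusted p = 0.00264), Oas2, an oligoadenylate synthase of antiviral defence, by 2.00 ± 0.32 (adjusted p = 0.00628), and Parp9 by 1.58 ± 0.26 (adjusted p = 0.00818). For Tbx21 the change was 2.10 ± 0.40 (adjusted p = 0.0218), lost without the plain 2 h pair and without the pseudocount. For Gbp7 it was 2.30 ± 0.46 (adjusted p = 0.03), lost without either 2 h pair. The Gbp7 call was also lost without the pseudocount, without the filter and on the mean of its probe sets. The remaining 4 of the 31, Dusp2, Lncpint, Ppp3ca and Nr4a2, were called lower at 1 h and not called at 2 h.

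Of the 10 genes whose difference was lower at 2 h than at 1 h, 8 were called lower at 2 h. The other two, Cish and Bpifa2, were called higher at 1 h. St8sia1, a sialyltransferase of ganglioside synthesis, was at 133, 245 and 244 without and at 143, 127 and 76.3 with IL-27, a change of -1.16 ± 0.24 (adjusted p = 0.0349). It was about level in the 1 h pair and lower with IL-27 in both 2 h pairs. Sbk1 changed by -1.10 ± 0.24 (adjusted p = 0.0491), Rgs16 by -1.05 ± 0.22 (adjusted p = 0.0341), Tnfsf14 by -1.04 ± 0.22 (adjusted p = 0.04), Sytl2 by -0.96 ± 0.17 (adjusted p = 0.0149) and Lgals7 by -0.86 ± 0.19 (adjusted p = 0.0491). Bpifa2, a secreted protein of salivary glands, was at 7.83, 336 and 16.6 without and at 140.5, 253 and 12.1 with IL-27, a change of -2.37 ± 0.46 (adjusted p = 0.0289). It was over 100 on 7 of the 52 arrays and at or under 50 on the other 45. Without the pair of suffix d, Cish, St8sia1, Rgs16, Sbk1, Sytl2, Tnfsf14, Lgals7, Bpifa2, Gbp7, Oas2 and Parp9 lost their calls. Bpifa2, Sbk1 and Rgs16 also lost theirs without the plain 2 h pair. With arrays centred and after quantile normalization, Sbk1, Rgs16, Tnfsf14 and Lgals7 lost theirs, and St8sia1 after quantile normalization only. In each of these settings 5 genes were called lower, against 10. Without the pseudocount St8sia1, Sbk1, Sytl2 and Lgals7 lost their calls. Of the 16 genes named for this change, 13 lost their calls without the pair term, and Gbp10, Eif2ak2 and Oas2 kept them.

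**Figure D3:**
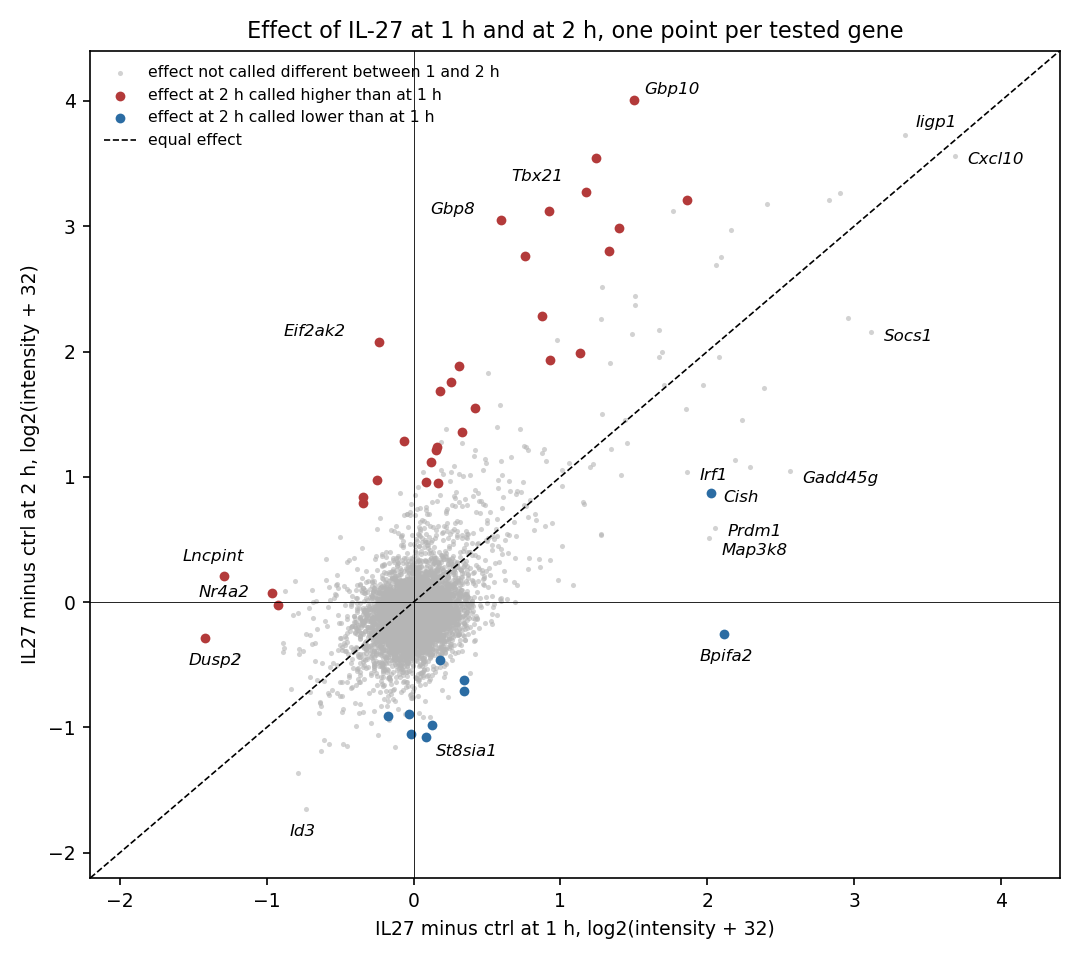
Difference between IL-27 and control arrays in log2(intensity + 32) at 1 h (x axis, 1 pair) and at 2 h (y axis, mean of 2 pairs), with 1 point for each of 6487 tested genes and a dashed line of equal effect. Red points (31 genes, with Gbp10, Gbp8, Eif2ak2 and Tbx21 far above the line) have a difference called higher at 2 h, blue points (10 genes, with Cish and Bpifa2) one called lower, and Cxcl10 and Iigp1 lie near the line at the upper right.

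Compared with 0.5 h, where each arm has 1 array, the difference at 1 to 2 h was called higher for 49 genes (0.755%) and lower for 5 (0.0771%). Of these, 48 were called higher and 5 lower at 1 to 2 h itself. The 54 calls became 89, 28 and 31 without the 1 h, the plain 2 h and the suffix d pair. Some genes already differed at 0.5 h, by the single pair there and with no test of it. Socs1 differed by 2.13 at 0.5 h, Iigp1 by 2.14, Socs3 by 1.55 and Irf1 by 1.21, and none of these 4 was called different between 0.5 h and 1 to 2 h. For other genes the difference grew after 0.5 h. It grew by 2.88 ± 0.31 (adjusted p = 7.19e-05) for Gbp10, by 2.79 ± 0.28 (adjusted p = 4.11e-05) for Frmd4b, by 2.74 ± 0.43 (adjusted p = 0.00297) for Gbp7, by 2.51 ± 0.25 (adjusted p = 3.94e-05) for Ifit1 and by 2.46 ± 0.23 (adjusted p = 2.72e-05) for Elovl6. The 5 called lower were Id3 (-1.21 ± 0.27, adjusted p = 0.0472), Scd2 (-1.06 ± 0.21, adjusted p = 0.022), Pde2a, Cd5 and Kcnn4. All 5 lost their calls without the plain 2 h pair and without the pair term, and all but Cd5 without the pair of suffix d. Gbp7 lost its call without the plain 2 h pair, and Gbp7 and Elovl6 lost theirs without the pair term.

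Many of these differences were smaller at 4 to 8 h. The difference at 1 to 2 h was called higher than the mean of the 3 pairs at 4 h, 8 h and 8 h with suffix d for 111 genes (1.71%) and lower for 77 (1.19%). This split of 59.0% higher became 72.2% with arrays centred and 74.6% after quantile normalization. The total of 188 became 89 without the plain 2 h pair and 94 without the pair of suffix d. Of the 111, 104 were called higher with IL-27 at 1 to 2 h, and of the 77, 59 were called lower.

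Iigp1 exceeded its 4 to 8 h difference by 2.98 ± 0.24 (adjusted p = 1.07e-06), with 0.44 at 4 h and 0.70 at 8 h. Ifit1 exceeded its later difference by 2.88 ± 0.17 (adjusted p = 1.49e-07), Cxcl10 by 2.87 ± 0.27 (adjusted p = 4.43e-06), Gbp7 by 2.76 ± 0.31 (adjusted p = 3.72e-05) and Rtp4 by 2.59 ± 0.18 (adjusted p = 3.76e-07). Among lower genes, Id3 had -0.29 at 4 h and -0.51 at 8 h, and Scd2 -0.27 and 0.059. Ddit4, a stress-induced inhibitor of mTOR signalling, was at 384, 365 and 270.3 without and at 308, 161 and 131 with IL-27. Its difference was -0.74 ± 0.13 (adjusted p = 0.000994) at 1 to 2 h, lower than at 4 to 8 h by 1.07 ± 0.18 on the log2 scale (adjusted p = 0.00248). Without the pair term Scd2, Ddit4, Rgs2, Id3 and Bbc3 lost their calls against 4 to 8 h, and Id3 and Bbc3 also lost them without either 2 h pair. Tbx21 took another course: its difference was 1.43 at 4 h and 3.40 at 8 h, and the windows differed by -0.17 ± 0.26 (adjusted p = 0.841).

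**Figure D4:**
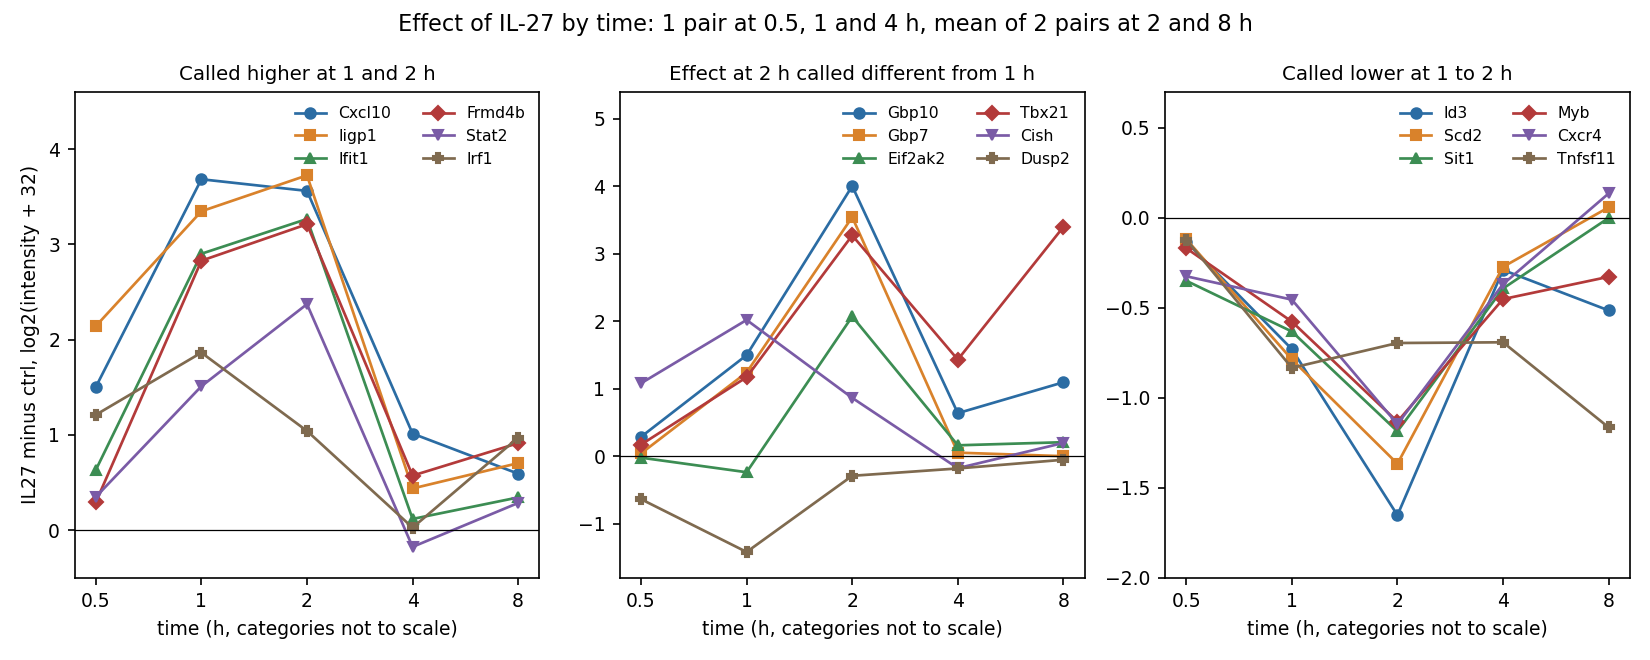
Difference between IL-27 and control arrays in log2(intensity + 32) (y axis) at 0.5, 1, 2, 4 and 8 h (x axis), with 1 line per gene; values at 2 and 8 h are means of 2 pairs and the others are single pairs. Cxcl10, Iigp1, Ifit1 and Frmd4b are highest at 1 or 2 h and at 1.01 or less at 4 h, Tbx21 stands at 3.40 at 8 h, and Id3, Scd2, Sit1, Myb and Cxcr4 are lowest at 2 h.

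The cell type was checked against its markers. CD4 T-cell markers (11 tested) summed to intensities of 24710 to 26580 in control cells and 22610 to 25100 with IL-27, with Cd4 and Cd5 called lower, Cd4 by 0.43 ± 0.10 on the log2 scale (adjusted p = 0.0104). Of these 2 calls 1 was left without either 2 h pair. Cd8a was at 11.8 to 20.4 and did not pass the filter. Of markers of other cells, 1 of 2 measured CD8 T-cell genes, 2 of 10 B-cell genes, 5 of 14 myeloid genes, 2 of 8 NK genes, 6 of 7 MHC class II genes and 1 of 6 erythroid and platelet genes passed the filter, and none of those was called at 1 to 2 h. Summed intensity was 120.7 to 142.4 without and 117.5 to 128.5 with IL-27 for CD8 markers, 204.6 to 260.4 and 167.0 to 295.3 for NK markers, and 136.3 to 146.4 and 120.1 to 162.8 for erythroid markers. B-cell markers summed to 1380 to 2268 without and 1299 to 2223 with IL-27, most of it from Ighm, while Cd79a was at 15.5 to 29.2. Myeloid markers summed to 325.8 to 569.9 without and 329.6 to 664.1 with IL-27, and MHC class II genes to 822.7 to 2298 and 793.7 to 2215. Lyz2, a myeloid gene, was at 35.2, 42.8 and 129 without and at 39.3, 84.7 and 255 with IL-27 (0.52 ± 0.17, adjusted p = 0.0607), and was called higher at 2 h.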

How the data were processed

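RNA of CD4 T cells was hybridised to HT_MG-430A arrays. The deposited values are intensities on a linear scale, and MAS5 is the tool that the submitters' processing notes name, with no version. Any further scaling is not stated in those notes. Of 22626 probe sets, 20173 have 1 gene in the platform annotation, 942 several and 1511 none. Each of 12291 genes was read from its brightest probe set over the 52 arrays, and 12268 matched RefSeq (GRCm38.p6). The number of arrays limits the precision.

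log2(intensity + 32) was fitted with limma 3.58.1 in R 4.3.3 over all 52 arrays. The fit had a term for each of 26 pairs and an IL-27 effect at each of 18 times, with 8 residual degrees of freedom from the 8 times with 2 arrays per arm. eBayes used an intensity trend, and p-values were Benjamini-Hochberg adjusted over 6487 genes. Pairing by time and suffix comes from the comparison's rule. Plain minus d correlated between arms at 0.769 at 2 h, and over the other such times at -0.014 to 0.642.

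Named genes were the 15 largest each way over 1 to 2 h, 6 at 1 h, 8 for 2 h minus 1 h, 5 for the other differences, up to 4 of each list by adjusted p, and a core list. Members and lists were chosen with earlier results of these data known. Alternatives were the pseudocount, filter, scaling, probe set rule, pair term, arrays fitted, intensity trend and each pair left out. Arrays of the second platform have no 1 or 2 h sample and were not used here.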

Additional observations from a re-analysis of the deposited data

Results flagged for a closer look

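The IL-27 effect differed between times, by a limma test of the difference itself, for the genes that follow. All values are differences between IL-27 and control arrays in log2(intensity + 32), and each adjusted p is over 6487 genes. Each arm has 3 arrays at 1 to 2 h, so no search for arrays far from the rest of their group was made.

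From 1 to 2 h the effect grew for Gbp10 by 2.51, Gbp8 by 2.46, Eif2ak2 by 2.31, Gbp7 by 2.30, Parp14 by 2.19, Tbx21 by 2.10, Oas2 by 2.00 and Parp9 by 1.58. It was lower at 2 h for Bpifa2 (-2.37), St8sia1 (-1.16), Cish (-1.16), Sbk1 (-1.10), Rgs16 (-1.05), Tnfsf14 (-1.04), Sytl2 (-0.96) and Lgals7 (-0.86). Without the pair term 13 of these 16 lost their calls, all but Gbp10, Eif2ak2 and Oas2, and 11 lost them without the 2 h pair of suffix d. With arrays centred 4 of the 16 lost them, after quantile normalization 5 and without the pseudocount 6. The 1 h value rests on 1 array per arm.

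Between 0.5 h and 1 to 2 h the effect grew for Gbp10 by 2.88, Frmd4b by 2.79, Gbp7 by 2.74, Ifit1 by 2.51 and Elovl6 by 2.46. It became lower for Id3 (-1.21), Scd2 (-1.06), Pde2a (-0.74), Cd5 (-0.74) and Kcnn4 (-0.66). Without the pair term 7 of these 10 lost their calls, all but Gbp10, Frmd4b and Ifit1. The value at 0.5 h likewise rests on 1 array per arm.

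Against 4 to 8 h the effect at 1 to 2 h was higher for Iigp1 by 2.98, Ifit1 by 2.88, Cxcl10 by 2.87, Gbp7 by 2.76 and Rtp4 by 2.59. It was lower for Scd2 (-1.12), Ddit4 (-1.07), Rgs2 (-1.06), Id3 (-0.90) and Bbc3 (-0.89), and these 5 lost their calls without the pair term.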

How the results depend on the processing

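No called difference of a named gene changed sign in the alternatives run. Counts of calls are given as the value under an alternative against the value in the report. Leaving out 1 pair at a time gave 173 to 292 genes higher at 1 to 2 h (285) and 89 to 444 lower (340), 74 higher at 1 h with either 2 h pair left out (78), 145 to 292 higher at 2 h (292) and 74 to 444 lower (445). It gave 12 to 40 calls for 2 h minus 1 h (41), 28 to 89 for 1 to 2 h minus 0.5 h (54) and 89 to 266 for 1 to 2 h minus 4 to 8 h (188). Only the 6 arrays gave 193 genes higher (285) and 117 lower (340) at 1 to 2 h. Genes lower at 2 h were 275 after quantile normalization and 266 with arrays centred. No pseudocount gave 11 genes lower at 1 h and 24 calls for 2 h minus 1 h. Arrays at 1 h cannot be left out of their own effect, and so gave no value there.

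Without the pair term as a replicate block, calls were 167 higher and 54 lower at 1 to 2 h, 38 and 2 at 1 h, 163 and 72 at 2 h, 6 for 2 h minus 1 h, 17 for 1 to 2 h minus 0.5 h and 46 for 1 to 2 h minus 4 to 8 h. Of the 30 genes named for size at 1 to 2 h, Klf3, Rflnb, Rgs2 and Tnfsf11 lost their calls without it. The labels do not say that the suffix d marks a shared culture or day, and at 30 h plain minus d correlated between arms at -0.014.

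Of the limits, the 1 h and 0.5 h values rest on 1 array per arm, and the counts at 2 h on 2 arrays per arm that differ from each other. Genes near the array median are compressed by the pseudocount. For 6 genes called higher at 1 to 2 h no control array was above its median. These passed the filter through the IL-27 arrays alone, so they were tested only because their values there were high. Genes with 1 or 2 control arrays above the median also needed IL-27 arrays to pass. Tbx21, Ifit1, Cxcl10 and Prdm1 were among them, and how many more there were was not counted.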

Other observations

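A further group was called higher at 1 h, described after its values were seen. Gadd45g, a stress-induced activator of MAP kinases, was at 68.8, 67.5 and 109 without and at 564, 237 and 191 with IL-27, which is 2.56 ± 0.46 (adjusted p = 0.00574) at 1 h and 1.05 ± 0.33 (adjusted p = 0.0504) at 2 h in the limma fit. Sgk1, a kinase of salt and cytokine responses, was at 354, 209 and 166 without and at 1857, 623 and 293 with IL-27, which is 2.29 ± 0.35 (adjusted p = 0.00138) at 1 h and 1.08 ± 0.25 (adjusted p = 0.01) at 2 h. Map3k8, a kinase upstream of ERK, was at 76.5, 130.2 and 274 without and at 404, 245 and 331 with IL-27, which is 2.01 ± 0.28 (adjusted p = 0.000511) at 1 h and 0.51 ± 0.20 (adjusted p = 0.114) at 2 h. For each of these 3 genes the IL-27 arm was highest at 1 h. The change from 1 to 2 h was -1.52 ± 0.57 (adjusted p = 0.399) for Gadd45g, -1.21 ± 0.43 (adjusted p = 0.357) for Sgk1 and -1.50 ± 0.34 (adjusted p = 0.0706) for Map3k8, and so did not pass its test for any of them.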
